A study of Mus musculus with 8 samples.

Results

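The measurements below describe 10 genes of fat storage and release in mouse 3T3-L1 cells: the droplet coat genes Plin2, Plin3 and Plin4, the fatty acid uptake genes Fabp4, Fabp5 and Lpl, and the lipolysis genes Pnpla2, G0s2, Lipe and Mgll. They were chosen by name as a functional group, with earlier results of these data known. The choice was out of 25799 genes and unnamed probes tested, of which 13785 carried a gene name. All 10 had at least 1 probe on the array, 14 probes in all, and all 10 passed the filter on dim probes. 3T3-L1 is a line of mouse fibroblasts with which adipocyte formation is commonly studied in culture. The cells spent 1 week in adipogenic medium and were then given cell culture supernatant, diluted 2-fold, for 6 h or 3 h. The 4 groups, with 2 one-colour arrays each, were knockdown supernatant for 6 h, control supernatant for 6 h, knockdown supernatant for 3 h and control supernatant for 3 h. Knockdown supernatant came from HL-60 cells with lowered USP2, a deubiquitinating enzyme, and control supernatant from HL-60 cells that were mock-transfected with the control vector. HL-60 is a human leukemia line, and in both kinds of supernatant it had been kept for 5 days with 30 nM of the phorbol ester PMA, which drives it towards a macrophage-like state. No group without supernatant was analysed here. USP2 was lowered in the human donor cells and not in the cells on the arrays, so the arrays hold no measure of the knockdown itself.

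Fat cells keep triglyceride in droplets wrapped in perilipins, a family of coat proteins that govern how lipases reach the lipid. Fatty acids enter from lipoproteins split by lipoprotein lipase (Lpl) and are carried in the cytosol by small binding proteins such as Fabp4 and Fabp5. Release runs stepwise: adipose triglyceride lipase (Pnpla2) takes off the first fatty acid, hormone-sensitive lipase (Lipe) works mainly on the resulting diglyceride, and monoglyceride lipase (Mgll) finishes the chain, while G0s2 binds and inhibits the Pnpla2 enzyme. The labels call the cells adipocytes. A signal is called well above background below where the scanner software marked it so. Among 19 adipocyte markers, this held on each of the 8 arrays for 9, including Pparg, Cebpa, Fasn, Fabp4 and Lpl, and on none for 8, including Adipoq, Lep, Cfd, Cidec and Cd36. It held on every array for all 14 fibroblast and preadipocyte markers, so both kinds of marker were measured. Among 13 endothelial and muscle markers it held on every array for 6 (Pecam1, Kdr, Vwf, Des, Acta1 and Tnnt3). It held on none for another 6 (Cdh5, Tek, Myod1, Myog, Ckm and Myh11). In such bulk RNA, fewer cells of a type and less RNA per cell cannot be told apart.

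Levels are log2 signal of a gene's probe minus the 75th percentile of its array, so 0 means a signal at that percentile and a step of 1 means a 2-fold change in signal. Differences are log2 differences from limma with their standard error (SE), and a gene passed at a Benjamini-Hochberg adjusted p under 0.05 over all genes and probes tested. The share of spots well above background was 50.7% to 55.9%, and 0 spots were saturated. The 75th percentile signal was 478 to 621. Replicate arrays correlated at 0.988 to 0.998 across genes, lowest in control 6 h. All arrays lay on 1 slide, with control arrays in 2 of its columns and knockdown arrays in the other 2, and with 3 h and 6 h in different rows. Supernatant and slide column, and time and slide row, therefore cannot be told apart.

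In the average over both times, 2 of the 10 genes were lower with knockdown supernatant, the droplet coat gene Plin4 and the monoglyceride lipase gene Mgll, and 0 were higher. At 6 h alone the count was 1 lower, Plin4, and at 3 h it was 0. The background for these counts was low. In the average over times 3.13% of all genes and probes tested passed in either direction and 0.965% passed as lower. At 6 h 2.30% passed in either direction and 0.698% as lower, and at 3 h 0.244% passed. At an unadjusted p under 0.05 from limma, 6 of the 10 genes were past it at 3 h, against 10.6% of all features, 3 at 6 h, against 19.3%, and 6 in the average, against 19.7%. As higher with knockdown supernatant, 2.16% of all features passed in the average, and as lower at 3 h 0.0194% did. The median difference of the 10 genes was -0.09 in the average over times, beside -0.01 for all features tested, -0.07 at 6 h beside 0.00, and -0.10 at 3 h beside -0.02. More genes differed by time. In 6 h against 3 h, 8 of the 10 genes passed in knockdown supernatant and 6 in control supernatant, beside 39.9% of all features in each. Of the 8 in knockdown supernatant, 5 were higher at 6 h, beside 17.7% of all features, and 3 were lower, beside 22.2%. Of the 6 in control supernatant, 4 were higher, beside 16.3%, and 2 were lower, beside 23.6%. At an unadjusted p under 0.05 the counts by time were 9, beside 49.3%, and 8, beside 47.9%. These comparisons share arrays, since each group of 2 arrays enters a knockdown and a time difference, and their values are given side by side below.

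**Figure D1:**
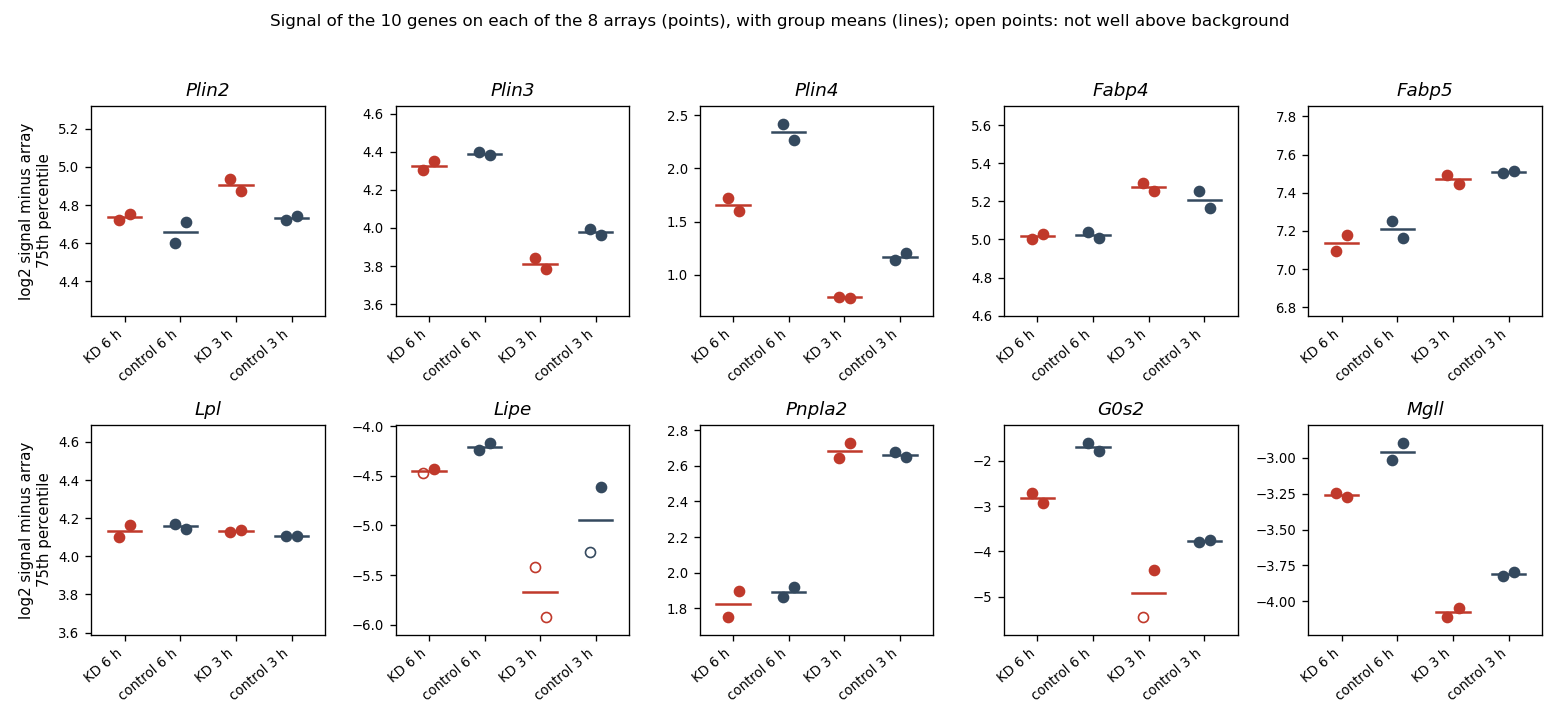
Level of each of the 10 genes (vertical axes: log2 signal minus the array's 75th percentile, each panel with its own range) on each of the 8 arrays (points), with group means as lines; red is knockdown and dark blue control supernatant, and open points are arrays where the probe was not well above background. Plin4 averaged 1.66 in knockdown 6 h, 2.34 in control 6 h, 0.79 in knockdown 3 h and 1.17 in control 3 h, with no overlap between groups.

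Plin4, a perilipin found on small and newly formed droplets of fat cells, had the largest differences of the 3 coat genes in every comparison given here. Its levels were 1.72 and 1.60 on the knockdown 6 h arrays, against 2.41 and 2.27 on the control 6 h arrays. At 3 h they were 0.79 and 0.79 with knockdown supernatant, against 1.13 and 1.21 with control supernatant. Both knockdown arrays lay below both control arrays at each time, and every 6 h array lay above every 3 h array. The difference at 6 h was -0.68 ± 0.08 (SE, n = 2 each), which is 1.60-fold lower, with a limma adjusted p of 0.0215. At 3 h it was -0.38 ± 0.08 and did not pass (adjusted p = 0.178), and the average over times was -0.53 ± 0.06 (adjusted p = 0.0123). By time, Plin4 was higher at 6 h than at 3 h by 0.87 ± 0.08 in knockdown supernatant, 1.83-fold, and by 1.17 ± 0.08 in control supernatant, 2.25-fold (adjusted p = 0.000751 and 0.000296). These time changes passed in all 22 alternative settings run. The difference between the 2 knockdown effects was -0.30 ± 0.12, with an unadjusted limma p of 0.0421 and an adjusted p of 0.548, so the knockdown effects at 6 h and 3 h were not shown to differ. In that comparison 0 of the 10 genes passed, as did 0.00% of all features, and Plin4 was the only 1 of the 10 at an unadjusted p under 0.05, beside 8.81% of all features.

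The Plin4 call at 6 h rested on the spread estimated from all 8 arrays. Its direction was the same in all 22 alternatives, with differences between -0.86 and -0.50, and it passed in 12 of them. It did not pass without scaling between arrays (adjusted p = 0.195), without the filter on dim probes (0.145), with array weights (0.0511), with the replicate block (0.0521), with spike-in scaling (0.108) or when only the 6 h arrays were fitted (0.156). Leaving out 1 array of the 3 h groups, which do not enter the difference, left it at -0.68 with adjusted p of 0.0818 and 0.0792 without knockdown 3 h replicates 1 and 2, and 0.0731 and 0.0677 without control 3 h replicates 1 and 2. The average over times behaved likewise without those same arrays, at adjusted p of 0.0801, 0.0698, 0.0644 and 0.0535. No spot of a member gene lay in a bright patch of an array or was marked as an outlier. On the same arrays the summed level of 13 macrophage and leukocyte markers was 39.6 to 42.5 in knockdown 6 h and 39.3 to 45.1 in control 6 h, in multiples of the array's 75th percentile, and thus overlapped. At 3 h it was 54.3 to 56.2 with knockdown and 44.0 to 46.3 with control supernatant, a gap to which Itgam contributed 9.98. Of the 13, 6 were well above background on every array (Itgam, Csf1r, Cd14, Lyz2, Aif1 and Cd3e), 4 on some, and 3 on none (Ptprc, Adgre1 and Tyrobp). The part of these markers in the 3 h values was not tested.

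Plin3, a perilipin that moves between the cytosol and droplets, was higher at 6 h in both supernatants. Its levels were 4.30 and 4.35 in knockdown 6 h, against 4.40 and 4.38 in control 6 h. They were 3.84 and 3.78 in knockdown 3 h, against 3.99 and 3.96 in control 3 h. The 6 h arrays all lay above the 3 h arrays, and at each time the knockdown pair lay below the control pair by a small margin. Plin3 was higher at 6 h by 0.52 ± 0.06 in knockdown and by 0.41 ± 0.06 in control supernatant (adjusted p = 0.00146 and 0.00319). In control supernatant this did not pass with each array's median as the scale (0.21, adjusted p = 0.102) or with no scaling (0.47, adjusted p = 0.0862), and in knockdown supernatant it did not pass with spike-in scaling (0.62, adjusted p = 0.0845). The knockdown differences of -0.06 at 6 h and -0.17 at 3 h did not pass (adjusted p = 0.591 and 0.416).

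Plin2, the coat protein of droplets in most cell types, passed in no comparison. Its levels were 4.72 and 4.76 in knockdown 6 h, against 4.60 and 4.71 in control 6 h. At 3 h they were 4.94 and 4.87 with knockdown supernatant, against 4.72 and 4.74 with control supernatant. The knockdown arrays lay above the control arrays at each time, yet the differences of 0.08 ± 0.07 at 6 h and 0.17 ± 0.07 at 3 h did not pass (adjusted p = 0.542 and 0.458). Their 95% intervals ran from -0.09 to 0.25 and from 0.01 to 0.34. No time change of Plin2 passed either, with -0.17 in knockdown and -0.08 in control supernatant (adjusted p = 0.0997 and 0.426).

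**Figure D2:**
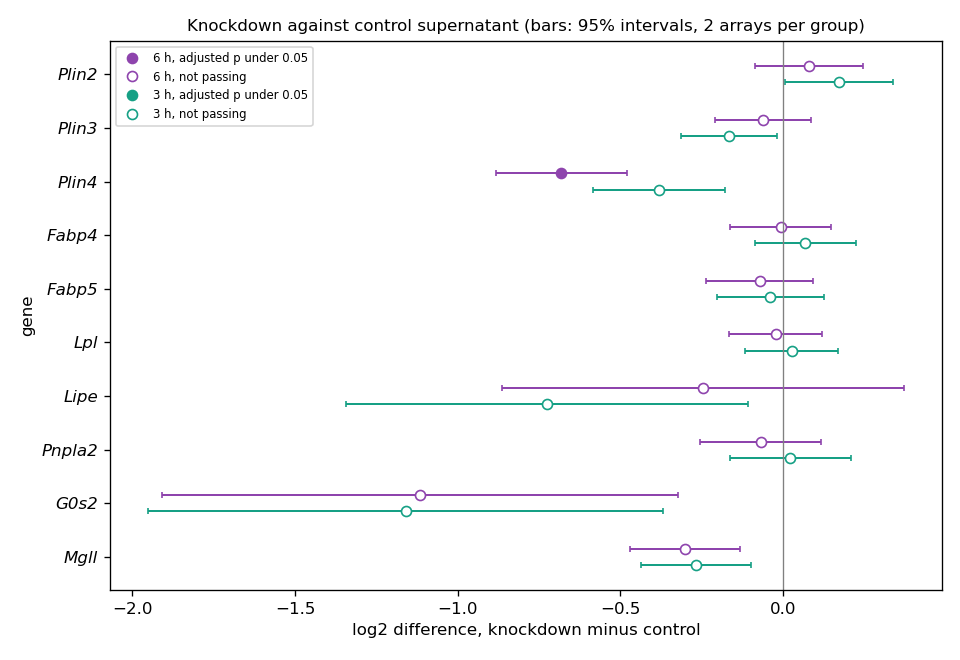
Log2 difference of each gene, knockdown minus control supernatant (horizontal axis), at 6 h (purple) and at 3 h (green), with 95% intervals from the limma fit of 2 arrays per group; filled points passed at an adjusted p under 0.05. The filled point is Plin4 at 6 h (-0.68), while G0s2 lies furthest to the left at both times (-1.12 and -1.16) with wide intervals.

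None of the 3 uptake genes passed between supernatants. Fabp4, the fatty acid binding protein typical of fat cells, stood at 5.00 and 5.03 in knockdown 6 h, against 5.04 and 5.01 in control 6 h. At 3 h Fabp4 stood at 5.30 and 5.26 with knockdown supernatant, against 5.25 and 5.16 with control supernatant. Fabp5, its close relative, which is also made in skin and immune cells, gave 7.09 and 7.18 in knockdown 6 h, against 7.25 and 7.16 in control 6 h. The 6 h groups of both genes overlapped between supernatants. At 3 h Fabp5 gave 7.49 and 7.45 with knockdown supernatant, against 7.50 and 7.52 with control supernatant. The knockdown differences of Fabp4 were -0.01 at 6 h and 0.07 at 3 h, with 95% intervals from -0.16 to 0.15 and from -0.09 to 0.22. Those of Fabp5 were -0.07 and -0.04, with intervals from -0.24 to 0.09 and from -0.20 to 0.13. None passed, and these intervals hold for the main processing only. Over the 22 alternatives the 6 h difference ran from -0.18 to 0.18 for Fabp4 and from -0.25 to 0.11 for Fabp5.

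Both binding protein genes had lower levels at 6 h than at 3 h, by small differences whose calls depended on the processing. In knockdown supernatant the direction was the same in all 22 alternatives, and in control supernatant it differed in 1 of 22 for each gene. Fabp5 was lower by -0.33 ± 0.07 in knockdown supernatant (adjusted p = 0.0109) and by -0.30 ± 0.07 in control supernatant (adjusted p = 0.0153). Fabp4 was lower by -0.26 ± 0.06 in knockdown supernatant (adjusted p = 0.0215), while -0.19 ± 0.06 in control supernatant did not pass (adjusted p = 0.0638). Scaled to 8 spike-in RNAs, Fabp5 in control supernatant turned to 0.09 (adjusted p = 0.787) and Fabp4 there to 0.21 (adjusted p = 0.509), and the changes in knockdown supernatant, at -0.23 and -0.15, no longer passed (adjusted p = 0.612 and 0.758). The Fabp4 call was also lost without any 1 of the 4 knockdown arrays (adjusted p = 0.0721 to 0.118). The Fabp5 call in control supernatant was lost without control 3 h replicate 1 (0.0747), control 3 h replicate 2 (0.0759) or control 6 h replicate 2 (0.0520), and in knockdown supernatant without knockdown 3 h replicate 1 (0.0736) or knockdown 6 h replicate 1 (0.0639).

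Lpl, the secreted lipase that frees fatty acids from lipoproteins, was level across all groups by its brighter probe in the main processing. That probe gave 4.10 and 4.17 in knockdown 6 h, against 4.17 and 4.14 in control 6 h. In the 3 h groups it gave 4.13 and 4.14 with knockdown supernatant, against 4.11 and 4.11 with control supernatant. The difference was -0.02 at 6 h and 0.03 at 3 h, with 95% intervals from -0.17 to 0.12 and from -0.12 to 0.17, and the time changes of 0.00 in knockdown and 0.05 in control supernatant did not pass. Over the 22 alternatives the time change in control supernatant ran from -0.15 to 0.44. It passed in 1 of them, quantile normalization (adjusted p = 0.0165). The 6 h difference between supernatants ran from -0.20 to 0.16 and passed in none. Another Lpl probe, well above background on all 8 arrays, ranged from 0.90 to 1.37 over all arrays and passed in no comparison. The 2 probes differed in sign for the average knockdown effect (0.00 and -0.02) and for the time change in knockdown supernatant (0.00 and -0.18 ± 0.16), and none of these values passed.

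Angptl4, a secreted inhibitor of the Lpl enzyme and the gene of the 3 wider lipid lists described further below that differed between supernatants, was higher with knockdown supernatant. Its levels were 6.04 and 6.12 in knockdown 6 h, against 5.31 and 5.28 in control 6 h. At 3 h Angptl4 reached 5.90 and 5.97 with knockdown supernatant, against 5.25 and 5.34 with control supernatant. All 4 knockdown arrays lay above all 4 control arrays. The difference was 0.78 ± 0.07 at 6 h (adjusted p = 0.00986) and 0.64 ± 0.07 at 3 h (adjusted p = 0.0447). The 3 h call was lost when any 1 of the 8 arrays was left out (adjusted p = 0.0823 to 0.246), with values from 0.59 to 0.75 over all 22 alternatives. The 6 h call was lost without knockdown 3 h replicate 1 (adjusted p = 0.0533) or 2 (adjusted p = 0.0514), and both were lost with no scaling (adjusted p = 0.132 at 6 h and 0.684 at 3 h) and with spike-in scaling (adjusted p = 0.300 and 0.684). Lpl itself did not pass, as above, nor did Gpihbp1, the anchor of the Lpl enzyme in capillaries (-0.02 at both 6 h and 3 h, adjusted p = 0.924 and 0.987).

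The lipolysis genes split by time. Pnpla2, which encodes the lipase of the first step, was lower at 6 h, and G0s2, which encodes the inhibitor of that lipase, was higher. Pnpla2 gave 1.75 and 1.90 in knockdown 6 h, against 1.86 and 1.92 in control 6 h, and these groups overlapped. In the 3 h groups it gave 2.64 and 2.73 with knockdown supernatant, against 2.68 and 2.65 with control supernatant, again overlapping. Every 6 h array lay below every 3 h array. The time change was -0.86 ± 0.08 in knockdown supernatant, 1.81-fold lower at 6 h, and -0.77 ± 0.08 in control supernatant, 1.70-fold lower (adjusted p = 0.000611 and 0.000797). It passed in all 22 alternatives with knockdown supernatant and in 21 of 22 with control supernatant, the exception being spike-in scaling (-0.38, adjusted p = 0.251). The knockdown differences of Pnpla2 were -0.07 at 6 h and 0.02 at 3 h, with 95% intervals from -0.25 to 0.12 and from -0.16 to 0.21.

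G0s2 was a dim gene with large differences. Its levels were -2.71 and -2.92 in knockdown 6 h, against -1.62 and -1.78 in control 6 h. At 3 h G0s2 stood at -5.44 and -4.40 with knockdown supernatant, the first of them not well above background, against -3.78 and -3.74 with control supernatant. No groups overlapped. G0s2 was higher at 6 h by 2.11 ± 0.32 in knockdown supernatant, 4.30-fold, and by 2.06 ± 0.32 in control supernatant, 4.17-fold (adjusted p = 0.00400 and 0.00419), and both changes passed in all 21 alternatives that could give a value. The size in knockdown supernatant moved with the dim array and the background method, from 0.74 with normexp background correction to 1.59 without knockdown 3 h replicate 1 and 2.62 without knockdown 3 h replicate 2. In control supernatant it was 1.23 with normexp. With knockdown supernatant G0s2 was lower in every array pair, by -1.12 ± 0.32 at 6 h, -1.16 ± 0.32 at 3 h and -1.14 ± 0.23 in the average, 2.20-fold, yet none of these passed (adjusted p = 0.155, 0.290 and 0.0647). The 6 h difference passed with normexp (-0.80, adjusted p = 0.0134) and with spike-in scaling (-1.29, adjusted p = 0.0309). The average passed with both (adjusted p = 0.0116 and 0.00569) and without knockdown 3 h replicate 2 (-1.40, adjusted p = 0.0328). At 3 h the difference was -0.64 without knockdown 3 h replicate 1 and -1.68 without knockdown 3 h replicate 2, and did not pass either way (adjusted p = 0.374 and 0.0647).

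Mgll, which encodes the lipase of the last step, followed the same order of groups as G0s2 with smaller steps. Of its 4 probes 1 was well above background, on all 8 arrays, and the other 3 on none. That probe gave -3.25 and -3.28 in knockdown 6 h, against -3.02 and -2.90 in control 6 h. In the 3 h groups it gave -4.11 and -4.05 with knockdown supernatant, against -3.82 and -3.80 with control supernatant. No groups overlapped. Mgll was higher at 6 h by 0.81 ± 0.07 in knockdown and by 0.85 ± 0.07 in control supernatant (adjusted p = 0.000524 and 0.000424). With normexp background correction these were 0.12, which did not pass (adjusted p = 0.269), and 0.25 (adjusted p = 0.0444). With knockdown supernatant Mgll was lower by -0.28 ± 0.05 in the average over times, 1.22-fold, which passed at an adjusted p of 0.0434. The differences of -0.30 at 6 h and -0.27 at 3 h did not pass on their own (adjusted p = 0.0974 and 0.251). The average passed in 7 of 21 alternatives. It was lost without any 1 of the 3 h arrays or of the knockdown 6 h arrays (adjusted p = 0.0970 to 0.174), at values of -0.30 to -0.27, and with the replicate block (adjusted p = 0.0709) and the slide column as a random block (adjusted p = 0.0629). It was -0.15 with median scaling (adjusted p = 0.213) and -0.16 with normexp (adjusted p = 0.214).

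Lipe, the hormone-sensitive lipase gene, was near background throughout. It gave -4.48 and -4.44 in knockdown 6 h, with 1 of the 2 arrays well above background, against -4.25 and -4.17 in control 6 h, with both. In the 3 h groups it gave -5.42 and -5.92 with knockdown supernatant, with neither array well above background, against -5.27 and -4.62 with control supernatant, with 1 of 2. At each time the knockdown arrays lay below the control arrays, and the 6 h arrays lay above the 3 h arrays. In knockdown supernatant the 6 h mean of Lipe lay 2.02-fold above a floor on the 3 h arrays. The floor was the lowest signal called well above background there, or the probe's own where that was higher. Only 1 of the 2 arrays at 6 h was itself well above background, so this is not a lower limit. The fitted change was 1.21 ± 0.25 (95% interval from 0.59 to 1.83, adjusted p = 0.0122), with means of -4.46 at 6 h and -5.67 at 3 h. This call was lost without knockdown 3 h replicate 2 (0.96, adjusted p = 0.0664), knockdown 6 h replicate 1 (1.23, adjusted p = 0.0549) or knockdown 6 h replicate 2 (1.19, adjusted p = 0.0554), and the value was 0.31 with normexp (adjusted p = 0.0426). In control supernatant the change of 0.73 ± 0.25 did not pass (adjusted p = 0.0645), and the 2 time changes were not shown to differ (difference 0.48 ± 0.35, adjusted p = 0.707). At 3 h Lipe was lower with knockdown supernatant by -0.72 (95% interval from -1.34 to -0.11), means of -5.67 and -4.94, but did not pass (adjusted p = 0.393). Set against the same kind of floor the difference was 1.44-fold, with 1 of the 2 control arrays well above background.

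**Figure D3:**
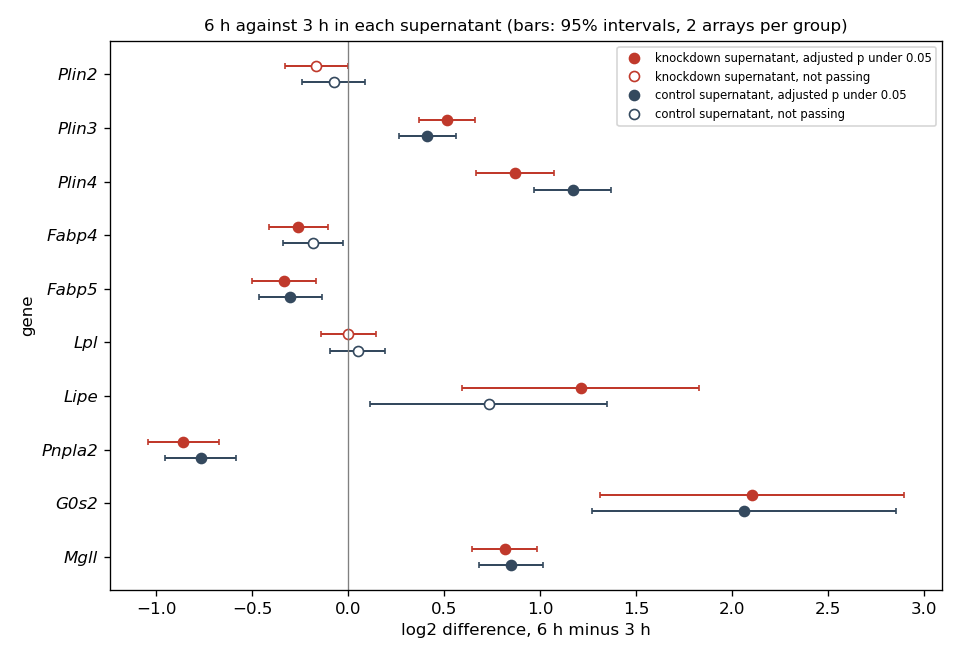
Log2 difference of each gene, 6 h minus 3 h (horizontal axis), in knockdown (red) and control (dark blue) supernatant, with 95% intervals from the limma fit of 2 arrays per group; filled points passed at an adjusted p under 0.05. Plin3, Plin4, G0s2 and Mgll lie to the right of 0 and Pnpla2 to the left in both supernatants, and Lpl lies on the 0 line.

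The same order of groups recurred in Plin3, Plin4, G0s2, Mgll and Lipe. From high to low it was control 6 h, knockdown 6 h, control 3 h and knockdown 3 h, with no arrays of neighbouring groups overlapping. This pattern was picked after the values were seen. It held for 5 of the 10 genes and for 716 of 25799 features, 2.78%. Taken one comparison at a time, separation of 2 arrays from 2 was common: at 3 h 6 of the 10 genes had both knockdown arrays below both control arrays, beside 26.8% of all features, and 3 had them above, beside 20.5%. At 6 h 5 lay below, beside 21.7%, and 1 above, beside 26.0%. At both times 5 lay below, beside 8.47%, and Plin2 lay above, beside 9.96%. By time in knockdown supernatant, 5 had both 6 h arrays above both 3 h arrays, beside 29.7%, and 4 had them below, beside 47.8%. In control supernatant these were 6, beside 26.8%, and 4, beside 40.6%. For Lipe and G0s2, 4 and 1 of the 8 arrays were not well above background. Lipe passed the filter on dim probes only through control 6 h, the highest group of this order, so the filter itself favoured its place there. Fabp4, Fabp5 and Pnpla2 had both 3 h groups above both 6 h groups. Plin2 was highest in knockdown 3 h, its next 2 groups, knockdown 6 h and control 3 h, overlapped at means of 4.74 and 4.73, and control 6 h was lowest. For Lpl every step of the order was at most 0.03.

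Sequence upstream of the gene start is shown for 4 of the genes that changed with time in both supernatants, G0s2, Mgll and Plin3, which were higher at 6 h, and Pnpla2, which was lower. These are the 250 bases before the start from RefSeq, build GRCm38.p6, for 7 of the 10 genes found in that table. Plin4 is left out because its window runs into its own annotated span. Each line reads 5′ to 3′ on the gene's strand, and capitals mark matches to the motifs named after it.
G0s2, chr1:193273189-193273438, minus strand: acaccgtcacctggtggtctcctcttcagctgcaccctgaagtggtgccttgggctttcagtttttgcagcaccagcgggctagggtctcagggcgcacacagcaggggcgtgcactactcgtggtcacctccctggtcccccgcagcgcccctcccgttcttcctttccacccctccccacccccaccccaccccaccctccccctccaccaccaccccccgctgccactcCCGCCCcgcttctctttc
Mgll, chr6:88724162-88724411, plus strand: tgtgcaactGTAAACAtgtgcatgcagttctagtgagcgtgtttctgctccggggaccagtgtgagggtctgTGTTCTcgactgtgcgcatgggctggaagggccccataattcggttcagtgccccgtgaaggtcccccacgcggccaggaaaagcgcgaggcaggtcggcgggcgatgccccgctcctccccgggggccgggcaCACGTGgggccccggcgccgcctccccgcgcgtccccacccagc
Plin3, chr17:56290512-56290761, minus strand: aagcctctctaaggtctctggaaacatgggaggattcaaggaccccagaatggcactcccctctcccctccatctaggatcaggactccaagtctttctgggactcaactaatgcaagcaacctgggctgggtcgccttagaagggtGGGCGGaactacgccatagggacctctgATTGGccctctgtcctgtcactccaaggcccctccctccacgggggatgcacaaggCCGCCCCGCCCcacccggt
Pnpla2, chr7:141454938-141455187, plus strand: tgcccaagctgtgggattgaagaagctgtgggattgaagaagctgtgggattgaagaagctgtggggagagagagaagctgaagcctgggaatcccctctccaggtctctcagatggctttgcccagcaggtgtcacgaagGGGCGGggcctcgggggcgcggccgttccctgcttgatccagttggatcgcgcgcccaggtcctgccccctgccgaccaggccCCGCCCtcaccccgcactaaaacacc
On both strands 9 motifs were searched: the core promoter box TATAAA, the promoter element CCAAT, the GC box GGGCGG, the E-box CACGTG, the nuclear receptor half-site AGGTCA, the glucocorticoid receptor half-site AGAACA, the forkhead site TGTTTAC, the cyclic AMP response element TGACGTCA and the C/EBP-type site TTGCNNAA. G0s2 held 1 GC box letter match, whose first base lay 18 bases before the start, Pnpla2 held 2, at 109 and 26 bases, and Plin3 held 3, at 103, 19 and 14 bases, the last 2 sharing 1 base. GGGCGG occurred in 32.7% of 32851 windows of this length. Plin3 also held CCAAT on the reverse strand 75 bases before the start (33.8% of windows). The Mgll window shown held CACGTG at 44 bases (6.02% of windows), AGAACA at 178 bases (16.1%) and TGTTTAC at 241 bases (3.17%). Another Mgll window, not shown, begins at base 88724454, inside the annotated span of the gene. It held none of these 3 motifs but GGGCGG, on the reverse strand at 121 bases. TATAAA, TGACGTCA and TTGCNNAA matched in none of these 4 windows, and they occurred in 12.4%, 1.55% and 9.56% of all windows. G0s2 and Pnpla2, which moved in opposite directions, thus shared the GC box letters, and the share of G and C was 67.2% and 63.2%. A match describes the letters and is not a measured binding site.

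For each gene that passed somewhere, the named gene with the most similar pattern was found among 12581 candidates well above background on all 8 arrays, as the root mean square (rms) difference of gene-centred log2 values over the 8 arrays. For Plin4, whose own rms around its mean was 0.58, the nearest were Mfsd13b (0.10) and Ddc (0.12). Mfsd13b differed between knockdown and control by -0.53 at 6 h and -0.24 at 3 h. For Mgll, with an own rms of 0.44, they were Pard6a (0.04) and Cdkn1b (0.07), which encodes a cell cycle inhibitor. Plin3 had Alg1 and Fam168a nearest (both 0.03, own rms 0.24), and Pnpla2 had Rnf185 (0.03) and Slc22a15 (0.05) against an own rms of 0.41. G0s2 had Armc2 and Grpr nearest, both at 0.35, with an own rms of 1.22. Lipe had Elac1 (0.19) and Pgap6 (0.20), with an own rms of 0.59. Neither G0s2 nor Lipe was itself well above background on all 8 arrays, so genes dim in the same way were not among the candidates. For Fabp4 the nearest were Cenpw and Adnp (both 0.02, own rms 0.12) and for Fabp5 Stx18 and Map4 (both 0.03, own rms 0.17). Likeness over 8 arrays of 4 groups is a description of pattern.

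Other genes of the same processes were read from 3 lists, also chosen with earlier results of these data known. Of 20 further genes of droplet coat and assembly 16 were tested, of 28 uptake genes 22, and of 37 genes of lipolysis and its regulation 28. The remaining 19 were not well above background on both arrays of any group, among them the adipocyte perilipin gene Plin1, Cidec, which fuses droplets, and the fatty acid translocase gene Cd36. Between supernatants Angptl4 passed, as given above, and none of the other 65 tested genes did, at either time or in the average. Of all features, 2.30% passed at 6 h, 0.244% at 3 h and 3.13% in the average. With time, 12 of 66 were higher and 15 lower at 6 h in knockdown supernatant, beside 17.7% and 22.2% of all features. In control supernatant 14 were higher and 18 lower, beside 16.3% and 23.6%. Genes of these lists thus moved in both directions, at shares near those of all features. Their medians lay within 0.08 of 0 in every comparison and changed sign with the scaling.

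Among droplet genes, Dgat2, which makes triglyceride, was higher at 6 h by 0.90 ± 0.07 in knockdown and by 0.89 ± 0.07 in control supernatant (adjusted p = 0.000517 and 0.000493). Hsd17b11, a droplet-bound dehydrogenase, rose alongside it by 0.69 and 0.68 (adjusted p = 0.00140 and 0.00148). Bscl2, which encodes seipin, a protein of droplet formation, was lower by -1.34 ± 0.25 and -1.0 ± 0.25 (adjusted p = 0.00827 and 0.0227), and Snap23, a membrane fusion protein, was lower by -0.56 in knockdown supernatant (adjusted p = 0.00711). Rab18, a small GTPase of droplets, was lower by -0.37 and -0.48 (adjusted p = 0.0145 and 0.00553). So was Hilpda, a droplet protein that inhibits the Pnpla2 enzyme in its own right, by -0.35 and -0.39 (adjusted p = 0.0229 and 0.0145). Neither passed with spike-in scaling, where Hilpda in control supernatant stood at 0.0012. Snap23 did not pass with spike-in scaling either (-0.45, adjusted p = 0.247), nor did Bscl2 in control supernatant (-0.61, adjusted p = 0.154), and with no scaling the calls of Snap23, Rab18 and Hilpda, and that of Bscl2 in control supernatant, were lost. Single arrays decided several of these calls. Bscl2 was lost without knockdown 3 h replicate 2 in knockdown supernatant and without either control 3 h array in control supernatant. Rab18 was lost in knockdown supernatant without either knockdown 3 h array or knockdown 6 h replicate 1. Hilpda was lost in knockdown supernatant without control 3 h replicate 1, knockdown 3 h replicate 1 or knockdown 6 h replicate 2, and in control supernatant without either control 3 h array or control 6 h replicate 1.

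Among uptake genes Apoe, the apolipoprotein that guides lipoproteins to their receptors, was lower at 6 h by -1.79 ± 0.06 in knockdown and -1.84 ± 0.06 in control supernatant (adjusted p = 9.38e-05 and 8.86e-05). Its levels were -0.47 and -0.41 on knockdown 6 h arrays, against 1.34 and 1.37 on knockdown 3 h arrays. In control supernatant they were -0.58 and -0.55 at 6 h, against 1.25 and 1.29 at 3 h. Slc27a3, of the fatty acid transport protein family, was higher by 1.13 and 0.99 (adjusted p = 0.000409 and 0.000561). Lmf1, which encodes a factor needed to mature the Lpl enzyme, was higher by 0.55 and 0.51 (adjusted p = 0.00249 and 0.00305). Lmf1 did not pass in knockdown supernatant with the mean of its probes (0.37, adjusted p = 0.107) or spike-in scaling (0.66, adjusted p = 0.0808), nor in control supernatant with median scaling (0.31, adjusted p = 0.0627) or no scaling (0.58, adjusted p = 0.0679). Cav2, a caveola gene, was higher by 0.49 and 0.32 (adjusted p = 0.00575 and 0.0255), a call that in control supernatant was lost without either control 3 h array or control 6 h replicate 2, and with median scaling (0.12, adjusted p = 0.426). In knockdown supernatant the Cav2 call was lost with no scaling (adjusted p = 0.0523) and spike-in scaling (adjusted p = 0.119). Acsl4, an acyl-CoA synthetase, was lower by -0.44 in control supernatant (adjusted p = 0.00394), while -0.21 in knockdown supernatant did not pass (adjusted p = 0.0513). The Acsl4 call was lost with no scaling (-0.38, adjusted p = 0.125) and with spike-in scaling (-0.05, adjusted p = 0.889).

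Among lipolysis genes Abhd5, the activator of the Pnpla2 enzyme, was lower at 6 h by -0.37 ± 0.11 in knockdown and -0.43 ± 0.11 in control supernatant (adjusted p = 0.0383 and 0.0238), the same direction as Pnpla2. The call in knockdown supernatant was lost without any 1 of the 4 knockdown or of the 2 control 6 h arrays, and that in control supernatant without control 3 h replicate 1 or either control 6 h array. Neither passed with spike-in scaling (-0.27 and -0.04). Adra2a, the alpha-2A adrenergic receptor, which restrains lipolysis, was lower by -1.62 and -1.61 (adjusted p = 0.00211 in both), with 6 of 8 arrays well above background. Akt2, a kinase of insulin signalling, was lower by -0.55 and -0.45 (adjusted p = 0.00318 and 0.00644). Both Akt2 calls were lost with no scaling and with spike-in scaling (-0.44 and -0.06, adjusted p = 0.218 and 0.854). The kinase gene Prkg1, with 5 of 8 arrays well above background, was lower by -1.33 in knockdown supernatant (adjusted p = 0.00226). In control supernatant Prkg1 was lower by -0.76 ± 0.17 (adjusted p = 0.0170), or 1.43-fold by the lowest signal called well above background. This control call was lost without control 6 h replicate 1. It was also lost with normexp, no scaling, no filter on dim probes, spike-in scaling or only the compared arrays. Pnpla6, a phospholipase of the same protein family as Pnpla2, was higher by 1.05 ± 0.07 and 0.96 ± 0.07 (adjusted p = 0.000317 and 0.000384). Aqp3, a channel that passes glycerol, was higher by 1.18 ± 0.10 and 0.66 ± 0.10 (adjusted p = 0.000554 and 0.00389).

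**Figure D4:**
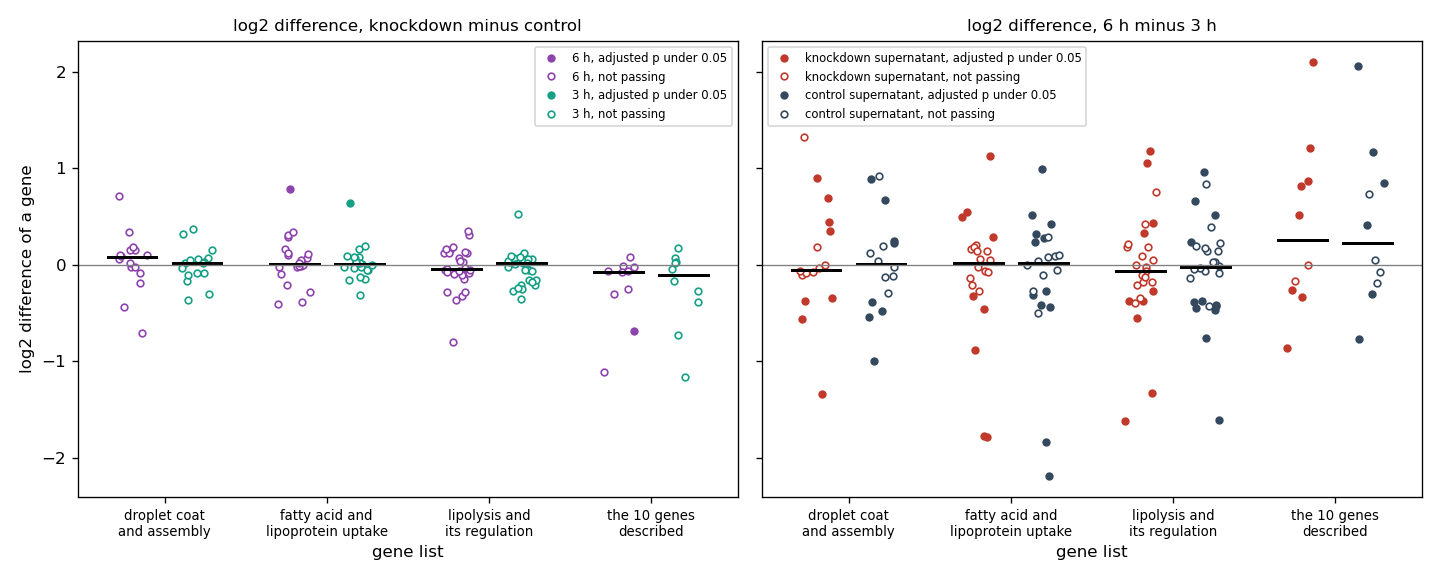
Log2 difference of each tested gene (points, vertical axis) in the 3 lists of other lipid genes and in the 10 genes described, knockdown minus control (left panel, 6 h purple, 3 h green) and 6 h minus 3 h (right panel, knockdown red, control dark blue); filled points passed at an adjusted p under 0.05 and black lines are list medians. The filled points in the left panel are Angptl4 at both times, in the uptake list, and Plin4 at 6 h, while the right panel holds filled points on both sides of 0 in every list.

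The summed level of the adipocyte markers was 71.4 to 74.4 in knockdown 6 h, against 78.2 to 80.0 in knockdown 3 h, and 72.4 to 74.2 in control 6 h, against 77.2 to 79.8 in control 3 h. That list holds Fabp4, Lpl and Lipe. The sum is of signals before the logarithm, so bright genes such as Fabp4 and Lpl weigh heavily in it. It is therefore not a measure separate from the genes described, and its part in the time changes was not tested. The 8 spike-in RNAs had a median 6 h minus 3 h difference of -0.09 in knockdown and -0.38 in control supernatant after scaling, and knockdown minus control of 0.15 at 6 h and -0.09 at 3 h. The split of calls over all features followed the scale: in control supernatant 4200 of 10293 calls were higher at 6 h with the 75th percentile, 2649 of 12383 with the median and 5047 of 6135 with the spike-ins. Knockdown against control at 6 h gave 413 of 593 calls higher, and 967 of 1075 with the median and 60 of 229 with the spike-ins. The median of all features moved to -0.27 and 0.32 with those scales for 6 h minus 3 h in control supernatant, beside -0.07, and to 0.19 and -0.18 for knockdown minus control at 6 h, beside 0.00. The time differences of Plin3, Plin4, Lipe, G0s2, Mgll and Pnpla2 had the same sign under every alternative run in both supernatants. Those of Fabp4 and Fabp5 in control supernatant, -0.19 and -0.30, are smaller than the shift that spike-in scaling gives to all features alike.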

How the data were processed

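RNA of 8 samples of 3T3-L1 cells was labelled with Cy3 and hybridised to one-colour Agilent arrays, and the submitters' processing notes name Agilent Feature Extraction, version 10.7.3.1. The authors deposited scanner files whose processed signal is an intensity that is background-subtracted per the file headers, and a table of log2 values deposited for the same arrays, whose columns correlated at 1.0 with log2 processed signal and had medians of -4.23 to -3.95, so that its centring is not known. No genome build is given for the array processing in the sources used here, while the upstream sequences above are from build GRCm38.p6.

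The log2 processed signal was set relative to the 75th percentile of 59305 non-control spots per array, outlier spots (163 to 319 per array) were left out, and spots of a probe were averaged. A probe entered when the scanner marked it well above background on the 2 arrays of any group, and a gene was read from its brightest probe. Of 55681 probes 27235 were named through RefSeq, 20 through the files' symbol, and 28426 stayed unnamed. limma 3.58.1 in R 4.3.3 was fitted with 4 group means on all 8 arrays, with Benjamini-Hochberg adjustment over 25799 genes and unnamed probes, and was tested on simulated data. Other steps used Python 3.11.15. The precision is limited by the number of arrays, 2 per group. The labels call these biological replicates without saying whether supernatants were prepared separately.

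The named genes were all 10 members, up to 4 genes per wider lipid list and comparison with the smallest p among those passing, 7 further lipid genes set by name, and 2 nearest patterns per gene that passed. The members, lists and tests were chosen with earlier results of these data known. The alternatives were other scalings, background corrections, filters, probe rules, weights, blocks and leaving out each array. The scanner files used hold no mean signal, so normexp with an offset of 50 was run on the median signal, and spike-in scaling was added after seeing the data. The main fit did not pair arrays by replicate number. The correlations of same-numbered deviations between groups were -0.0466 to 0.0867. The slide column block, which joined same-numbered arrays of a supernatant, had a fitted correlation of 0.160.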

Additional observations from a re-analysis of the deposited data

How the results depend on the processing

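Of 1286 values of the 10 genes under alternatives, 1213 stayed on the same side of the threshold, 59 lost a call, 13 gained one and 1 reversed. Of the 1213, 70 changed sign with no call in either setting. The count of 0 genes at 3 h, and of 0 in the difference of effects, held in every alternative run. At 6 h the 1 call became 2 with normexp, and 0 with no scaling, no filter on dim probes, array weights, the replicate block or only the compared arrays, and it was 0 to 1 when single arrays were left out. In the average over times the 2 calls became 1 with median scaling, quantile normalization, the replicate block, the slide column as random block or spike-in scaling, and 0 with no scaling or no filter, and were 0 to 2 without single arrays. With spike-in scaling the call at 6 h and in the average was G0s2, not Plin4. By time, the 8 calls in knockdown supernatant became 5 with spike-in scaling and were 5 to 8 without single arrays, and the 6 in control supernatant were 5 to 6 without single arrays and 4 (no scaling) to 8 (slide column as random block) in the other settings. The replicate block changed no call of the 10 genes by time. Fabp5 in control supernatant reversed to 0.089 with spike-in scaling, and Hilpda to 0.0012. The causes were not tested. By construction, fitting only the compared arrays leaves fewer degrees of freedom, and the offset of normexp pulls dim signals together. The part of either in these changes was not tested.

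Among the 66 other lipid genes the call at 3 h became 0 with median scaling, no scaling, quantile normalization, no filter, the replicate block, spike-in scaling, only the compared arrays, or without any single array (range 0 to 0). The call at 6 h became 2 with normexp, median scaling or the mean of probes, 0 with no scaling, no filter, spike-in scaling or only the compared arrays, and 0 to 7 without single arrays. In the average it became 2 with normexp, median scaling or the mean of probes, 0 with no scaling or spike-in scaling, and 1 to 4 without single arrays. The difference of effects gave 0 to 2 without single arrays. By time, the 27 calls in knockdown supernatant became 12 with no scaling, 15 with no filter and 10 with spike-in scaling, 5 higher and 5 lower, and were 14 to 28 without single arrays. The 32 in control supernatant became 8, 14 and 16, 13 of these 16 higher, and 21 with only the compared arrays, and were 17 to 31 without single arrays.

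Lipe and G0s2, the dim genes with arrays not well above background, had no value under the filter that requires all 8 arrays, and only the compared arrays gives no average and no difference of effects. Each value rests on 2 arrays per group on 1 slide.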
